A study of Mus musculus with 16 samples.

Results

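The 9 genes described here, Phgdh, Psat1, Psph, Shmt1, Shmt2, Mthfd1, Mthfd2, Mthfd1l and Asns, encode enzymes of serine synthesis, folate-dependent one-carbon metabolism and asparagine synthesis. They were taken by symbol from the 18193 genes of the array, each read from its probe set with the highest mean over 16 arrays. That choice of probe set used the symbol and the mean level only. The genes themselves were chosen with earlier results of these data known. Their counts beside shares of all genes are therefore not independent of these data. RNA came from AND T cells, CD4+ T cells of mice with AND T cell receptor transgenes, specific for a moth cytochrome c peptide. B10.BR lymph node cells bearing CD90.1 were given to B10.BR recipients aged 6 to 8 weeks, and CD4+CD90.1+ cells were sorted 60 h later. Recipients with antigen were Ii-rTA+ TIM+, in which a doxycycline-dependent activator under the invariant chain promoter switches on the peptide in antigen-presenting cells. Recipients without antigen were Ii-rTA- TIM+ and, by their titles, had no doxycycline, so the no-antigen groups differed from the others in genotype and in doxycycline as well as in antigen. Transient antigen followed a short exposure to doxycycline and persistent antigen a long one. In each of these 3 regimes mice received PBS or FGK45.5, an antibody that stimulates CD40 on antigen-presenting cells. Each group held 3 arrays (replicates 1, 2 and 3), except that the anti-CD40 groups of no and of transient antigen had 2 arrays, replicates 1 and 2.

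Serine is made from a glycolytic intermediate by Phgdh, which oxidises it and is the committed step, Psat1, which adds the amino group, and Psph, which removes the phosphate. Shmt1 in the cytosol and Shmt2 in mitochondria convert serine to glycine and pass its side-chain carbon to folate. Mitochondrial Mthfd2 and Mthfd1l carry that carbon on to formate, which cytosolic Mthfd1 returns to folate for purine and thymidylate synthesis. Asns makes asparagine from aspartate and glutamine. T cells that leave rest are known to raise this pathway for nucleotide synthesis, and several of its genes are known targets of the transcription factor ATF4, which also acts in the response to amino acid shortage.

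The promoters of 3 genes on which the results turn are shown because such genes are often discussed through shared control elements. Each is the 250 bases up to the transcription start from RefSeq on GRCm38.p6, 5′ to 3′ on the gene's strand, in lower case with motif matches in capitals. That of Mthfd2 lies at chr6:83317605-83317854 (minus strand), that of Shmt2 at chr10:127522445-127522694 (minus strand) and that of Mthfd1l at chr10:3972825-3973074 (plus strand).
Mthfd2: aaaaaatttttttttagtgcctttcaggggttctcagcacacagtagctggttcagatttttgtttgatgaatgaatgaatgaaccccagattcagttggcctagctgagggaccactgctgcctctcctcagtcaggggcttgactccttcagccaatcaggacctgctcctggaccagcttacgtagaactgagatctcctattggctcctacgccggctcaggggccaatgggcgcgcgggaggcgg
Shmt2: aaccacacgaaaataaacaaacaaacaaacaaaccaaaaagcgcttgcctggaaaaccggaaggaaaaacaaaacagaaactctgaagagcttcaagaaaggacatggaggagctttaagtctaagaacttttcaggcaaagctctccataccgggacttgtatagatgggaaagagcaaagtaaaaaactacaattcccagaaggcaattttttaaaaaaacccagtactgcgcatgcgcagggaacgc
Mthfd1l: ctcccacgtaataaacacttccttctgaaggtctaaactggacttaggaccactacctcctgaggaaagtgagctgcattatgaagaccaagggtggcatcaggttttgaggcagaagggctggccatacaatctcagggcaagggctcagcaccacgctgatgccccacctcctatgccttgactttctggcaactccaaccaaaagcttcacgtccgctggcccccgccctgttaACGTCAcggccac
All 9 genes were matched to the RefSeq table, with 10 promoters among 32851. Windows from 250 bases before to 50 after the start were searched on both strands for 3 motifs. TGATGCA, one spelling of part of the C/EBP-ATF element to which ATF4 binds, was in 0 of the 10 promoters and in 3.15% of all. Forms of the element with other bases were not searched, so the 0 does not show that the element is absent. CACGTG, an E-box, was in 0 of the 10 and in 7.15% of all. TGACGT, a part of the cyclic AMP response element, was in 2, those of Mthfd1l and Psph, and in 7.51% of all. The match of Mthfd1l is in capitals above, on the minus strand 13 bases before the start. A match is a description of letters in this window and not a bound site.

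The deposited intensities are given here as log2(intensity + 1), and differences are on that scale. A limma model of 6 group means gave each difference its standard error (SE), and genes with a Benjamini-Hochberg adjusted p under 0.05 over all 18193 genes are said to be called. Arrays with the same replicate number deviated from their group means together, so each test of a member is given without and with the replicate number as a block. The labels do not say whether replicates came from separate mice, and p-values then measure only how these samples vary. The replicate 2 arrays had a lower mean intensity (83.5 to 101) than the others (106 to 121). Of the T cell markers, 8 of 8 measured were brighter than the median probe set (4.37), as were 3 of 7 B cell markers (Cd22, Ms4a1 and Blk, but not Cd79a, Cd79b, Pax5 or Cr2), 9 of 10 dendritic cell and macrophage markers and 2 of 6 NK cell and CD8 T cell markers. The summed linear intensity of the T cell list was 6860 to 7340 in no antigen with PBS and 5220 to 6280 in persistent antigen with PBS. It was 7270 to 9530 in transient antigen with PBS and 4770 to 6790 in transient antigen with anti-CD40. That of the 7 measured B cell markers was 249 to 316, 340 to 466, 242 to 324 and 348 to 394 in these groups, in the same order. That of the dendritic cell and macrophage list was 399 to 480, 384 to 547, 340 to 502 and 349 to 457. In no antigen and in persistent antigen with anti-CD40 the T cell list summed to 6110 to 7370 and 5120 to 5820. The B cell markers summed to 286 to 495 and 353 to 446 there. The dendritic cell and macrophage list summed to 504 to 577 and 380 to 528. The first of these ranges lay above that of transient antigen with anti-CD40. The part of these levels in the results below was not tested. In such bulk samples, fewer cells expressing a gene and less RNA per cell cannot be told apart.

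Antigen persistence was compared first in mice given PBS. Serine synthesis and mitochondrial folate genes were higher with persistent antigen than without antigen, Phgdh 2.44-fold, Psat1 and Mthfd2 each 2.00-fold, Shmt2 1.81-fold and Psph 1.72-fold, with Mthfd1l higher by 0.59 in log2. With the block these 6 of 9 genes were called, all higher, beside 9.93% of all genes called higher. Without it 2 were called, Psat1 and Mthfd2, beside 2.2% of all genes. The cytosolic Shmt1 and Mthfd1 and the asparagine enzyme Asns were called in neither. The median difference over the 9 genes was 0.78, against -0.03 over all genes. Leaving out any of the 6 arrays compared ended both unblocked calls. Leaving out a transient-antigen array (any of the 5) or persistent antigen with anti-CD40 replicate 1 or 3 left 1, while the blocked count stayed at 4 to 6 when each of the 16 arrays was left out.

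Phgdh measured 7.42, 6.43 and 7.50 in the no-antigen PBS arrays of replicates 1, 2 and 3, and 8.69, 8.09 and 8.43 in those with persistent antigen. Every persistent array was above every no-antigen array, and within replicate numbers the difference was 1.27, 1.67 and 0.93. Its mean difference was 1.29 (SE 0.35, limma adjusted p = 0.066; SE 0.21, adjusted p = 0.00019 with the block). Psat1 measured 10.18, 10.07 and 10.29 without antigen and 11.27, 11.01 and 11.26 with persistent antigen. Its groups did not overlap, and the 3 within-number differences, 1.09, 0.94 and 0.97, were close to each other. The mean difference was 1.0 (SE 0.26, limma adjusted p = 0.046; SE 0.18, adjusted p = 0.00044 with the block). Psph, the last enzyme of the route, measured 7.19, 6.67 and 7.19 without antigen and 7.86, 7.75 and 7.78 with persistent antigen. These groups too did not overlap, and the difference of 0.78 was called with the block alone (limma adjusted p = 0.13 without it and 0.0029 with it).

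**Figure D1:**
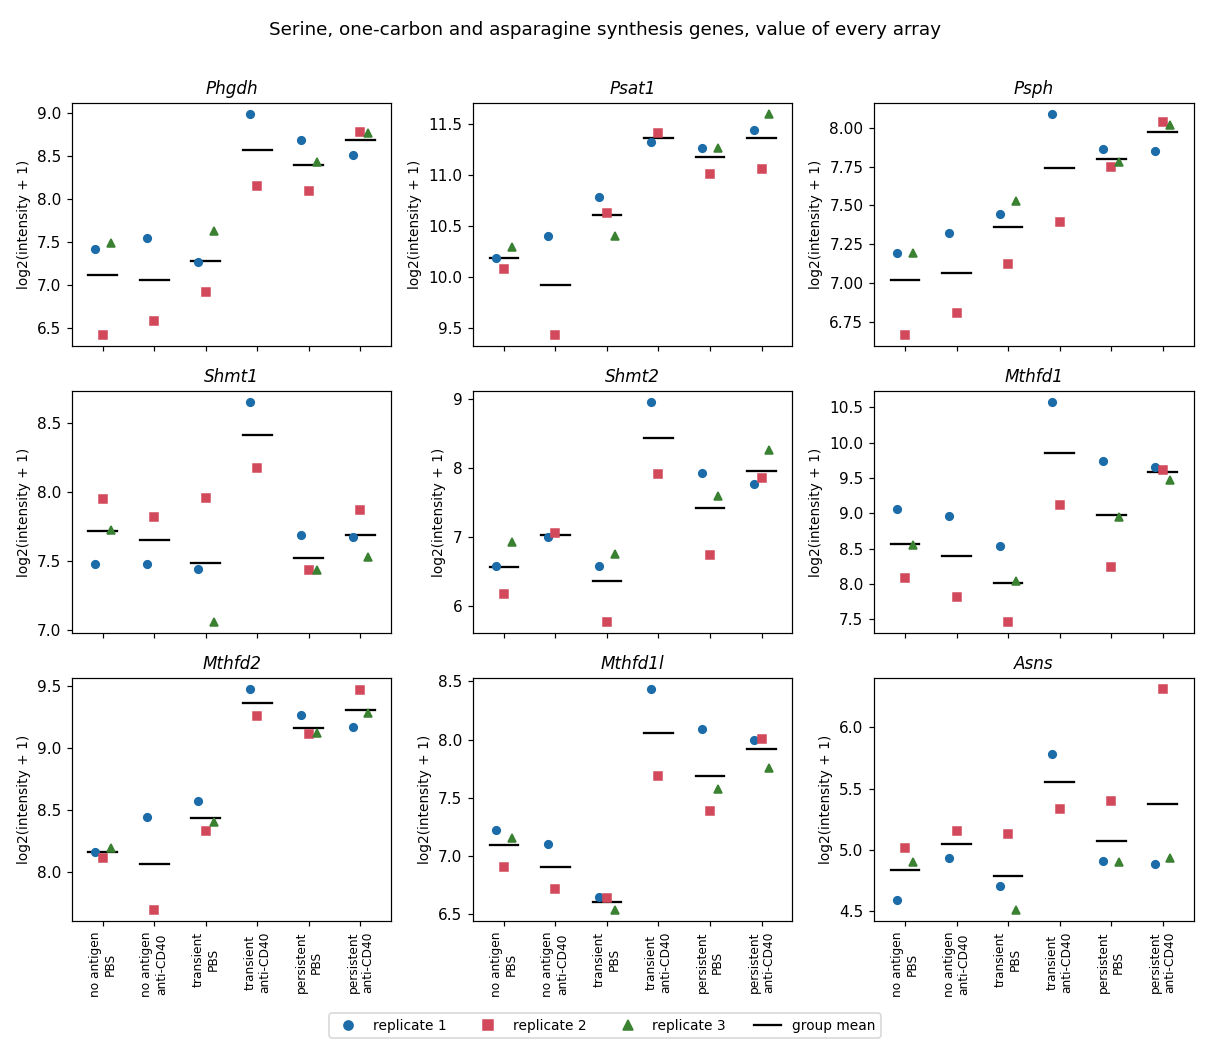
Value of each of the 16 arrays for the 9 genes, as log2(intensity + 1) on the y axis of each panel, by antigen regime and treatment on the x axis, with the replicate number as marker and the group mean as a line. Phgdh, Psat1 and Mthfd2 are high in transient antigen with anti-CD40 and in both persistent groups, and low in the other 3 groups.

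Mthfd2, the mitochondrial dehydrogenase, was the member with the smallest spread in this comparison. It measured 8.16, 8.12 and 8.20 without antigen and 9.26, 9.11 and 9.12 with persistent antigen. The difference was 1.0 (SE 0.23, limma adjusted p = 0.023; SE 0.17, adjusted p = 0.00023 with the block). Mthfd1l, the mitochondrial formate-producing enzyme, measured 7.23, 6.91 and 7.15 without antigen and 8.09, 7.39 and 7.57 with persistent antigen. The groups were separate but the lowest persistent array lay near the highest no-antigen array, and the difference of 0.59 was called with the block alone (limma adjusted p = 0.31 without it and 0.023 with it). Shmt2 measured 6.58, 6.17 and 6.93 without antigen and 7.93, 6.74 and 7.60 with persistent antigen. Its groups overlapped through the replicate 2 array, although the difference had the same sign in each number (1.34, 0.57 and 0.66), and it was called with the block alone (0.86, limma adjusted p = 0.32 without it and 0.0084 with it). In all, 5 members had persistent arrays entirely above the no-antigen arrays, beside 8.4% of all genes.

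The other 3 members gave no call. Shmt1 differed by -0.20 (95% interval -0.61 to 0.22 with the block), and the sign was positive in replicate 1 and negative in replicates 2 and 3. Mthfd1 differed by 0.42 (-0.02 to 0.85), and Asns by 0.24 (-0.26 to 0.73). The intervals of Mthfd1 and Asns reach above the change called in Mthfd1l. Asns lay between 4.51 and 6.31 over the 16 arrays, above the median probe set in each.

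Transient antigen with PBS was tested against no antigen in the same way. None of the 9 genes was called on the probe set used, with or without the block. A second probe set of Psat1, 1451064_a_at, was called with the block (0.88, limma adjusted p = 0.028). Of all genes 2.02% were called higher and 0.868% lower with the block, and 0.0934% and 0.033% without it. At an unadjusted p under 0.05, 0 members passed without the block and 3 with it, of 845 genes in all without it. The values went in both directions. Psat1 was 0.42 higher and Psph 0.35 higher, whereas Mthfd1 was 0.55 lower and Mthfd1l 0.49 lower. Mthfd1l measured 6.64, 6.64 and 6.54 with transient antigen, below each of the no-antigen arrays, a separation that 3.04% of all genes showed in that direction, and its blocked interval was -0.85 to -0.13. Psat1 and Mthfd2 were above each no-antigen array, and these 2 members compare with 7.08% of all genes.

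Persistent and transient antigen with PBS differed in 6 members with the block, all higher with persistent antigen, beside 5.99% of all genes. They were Phgdh (1.13), Mthfd1l (1.08), Shmt2 (1.05), Mthfd1 (0.97), Mthfd2 (0.73) and Psat1 (0.58), with limma adjusted p from 0.00029 for Mthfd1l to 0.043 for Psat1. Without the block 0 members were called, beside 0.605% of all genes, and the smallest adjusted p was 0.059 for Mthfd1l, while 5 members had an unadjusted p under 0.05. Mthfd1 was called here and not against no antigen, its transient PBS mean of 8.01 ± 0.54 being the lowest of its 6 groups (SD, n = 3). Mthfd1 overlapped between these groups, but the persistent array was higher by 1.21, 0.78 and 0.91 within replicates 1, 2 and 3. Both comparisons use the same persistent arrays and are not independent.

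**Figure D2:**
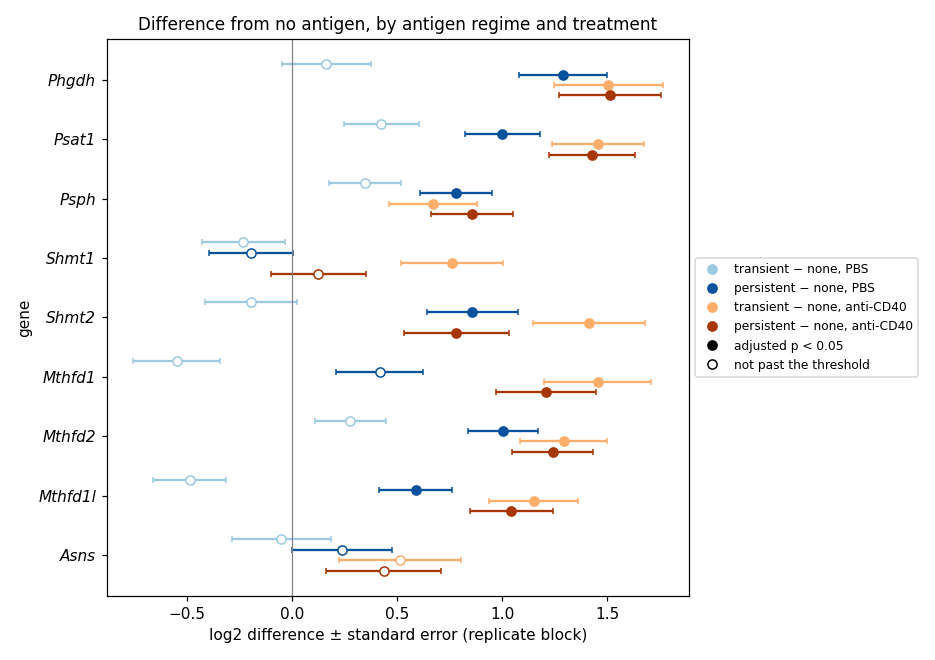
Differences between antigen regimes for each gene (y axis), as log2 difference with its standard error from the fit with the replicate block (x axis), with filled points for adjusted p under 0.05. Psat1 and Mthfd2 lie to the right in persistent against no antigen. Shmt1 in mice given PBS lies at -0.23 for transient and -0.20 for persistent against no antigen.

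With anti-CD40 the picture for transient antigen was different. Against no antigen with anti-CD40, 8 of 9 genes were called higher with the block, all but Asns, beside 10.5% of all genes. Without the block 0 were called, beside 0.423% of all genes, with 8 members at an unadjusted p under 0.05 and the smallest adjusted p, 0.055, for Psat1 and Mthfd2. The transient arrays were above the no-antigen arrays in 9 of 9 members, beside 15.8% of all genes, in a comparison of 2 arrays with 2. The median difference of the members was 1.29, against -0.01 over all genes. Without replicate 1 of transient antigen with anti-CD40, 5 of the 8 stayed called with the block, and Psph (0.45), Shmt1 (0.39) and Shmt2 (1.12) did not. Without no antigen with anti-CD40 replicate 1, 2 members were called in the unblocked fit.

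Phgdh measured 7.55 and 6.58 without antigen and 8.99 and 8.15 with transient antigen, each under anti-CD40. Within each replicate number the transient array was higher by 1.44 and 1.57, and the lower transient array stood above the higher no-antigen one. The difference was 1.51 (SE 0.43, limma adjusted p = 0.14; SE 0.26, adjusted p = 0.00055 with the block). Psat1 measured 10.40 and 9.43 without antigen and 11.33 and 11.41 with transient antigen, a difference of 1.46 (limma adjusted p = 0.055, and 0.00016 with the block). Mthfd1 measured 8.96 and 7.82 without antigen and 10.58 and 9.12 with transient antigen, also a difference of 1.46 (limma adjusted p = 0.35, and 0.00062 with the block). In Mthfd1 the replicate 1 arrays were far above the replicate 2 arrays in both groups, which is the spread that the block takes up.

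Persistent antigen with anti-CD40 was above no antigen with anti-CD40 in 7 members with the block (all but Shmt1 and Asns), beside 10.9% of all genes, and in 3 without it (Phgdh, Psat1 and Mthfd2), beside 1.64%. Phgdh measured 8.51, 8.78 and 8.76 with persistent antigen, an unblocked difference of 1.62 (SE 0.40, limma adjusted p = 0.047; 1.52, SE 0.24 and adjusted p = 0.00018 with the block). Psat1 differed by 1.45 (limma adjusted p = 0.018, and 6.3e-05 with the block), and Mthfd2 by 1.23 (0.021, and 0.00014 with the block). Leaving out no antigen with anti-CD40 replicate 2 or persistent antigen with anti-CD40 replicate 1 or 3 ended all 3 unblocked calls, and leaving out persistent replicate 2 left 1. The blocked count was 6 or 7 whichever array was left out. Asns differed by 0.33 without the block, not called, and its persistent arrays measured 4.89, 6.31 and 4.93, with replicate 2 far above the other two.

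Between persistent and transient antigen under anti-CD40, 0 members were called in either fit, beside 0.055% of all genes called higher and 0.022% lower with the block. At an unadjusted p under 0.05, 1 member passed without the block and 2 with it. The blocked differences were 0.01 for Phgdh (95% interval -0.50 to 0.52), -0.03 for Psat1 (-0.46 to 0.40) and -0.05 for Mthfd2 (-0.46 to 0.35). For Shmt1 and Shmt2 they were -0.64 (-1.11 to -0.16) and -0.63 (-1.16 to -0.11), lower with persistent antigen but not called. The Shmt1 arrays did not overlap, with 8.65 and 8.17 under transient antigen and 7.67, 7.87 and 7.53 under persistent antigen, beside 7.9% of all genes separate in that direction. The intervals of the other members still allow differences of the size of their bounds.

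The effect of anti-CD40 itself was then compared in each regime. In mice without antigen 0 of 9 genes were called in either fit, beside 0.0055% of all genes called higher with the block, and 0 members passed an unadjusted p of 0.05 without the block and 1 (Shmt2) with it. The blocked differences ran from -0.24 for Psat1 to 0.62 for Shmt2. With transient antigen 7 of 9 genes were called higher with the block (all but Psph and Asns), beside 7.59% of all genes, and 2 without it (Shmt2 and Mthfd1l), beside 0.522%. Anti-CD40 arrays were above PBS arrays in 8 members, beside 10.5% of all genes. With persistent antigen 0 of 9 were called in either fit, beside 0% of all genes in either direction, and 0 members without the block and 2 with it had an unadjusted p under 0.05. The 9 mean differences there were between 0.14 and 0.61, each above 0. Within replicate 1 all but Psat1 (0.18) were below 0, from -0.17 for Phgdh to -0.01 for Psph. Within replicates 2 and 3 each was above 0, up to 1.37 for Mthfd1 in replicate 2.

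On the probe sets used, Shmt2 was the member with the largest response to anti-CD40 under transient antigen. The other probe sets of Shmt2 gave much smaller differences, listed further below, so this rank holds for the probe set used. It measured 6.58, 5.76 and 6.75 with PBS and 8.96 and 7.92 with anti-CD40. The lower anti-CD40 array was more than 1 log2 unit above the highest PBS array, and the within-number differences were 2.39 and 2.16. The difference was 2.08 (SE 0.41, limma adjusted p = 0.040), and 2.23 or 4.70-fold with the block (SE 0.25, adjusted p = 2.3e-05). Mthfd1, its cytosolic partner in folate chemistry, measured 8.54, 7.46 and 8.04 with PBS and 10.58 and 9.12 with anti-CD40, with a difference of 1.82 or 3.53-fold with the block (SE 0.24, adjusted p = 7.1e-05; adjusted p = 0.15 without it). Mthfd1l measured 6.64, 6.64 and 6.54 with PBS and 8.43 and 7.69 with anti-CD40. The difference was 1.45 (SE 0.28, limma adjusted p = 0.037; 1.42, SE 0.20 and adjusted p = 0.00014 with the block). Phgdh rose by 1.40 or 2.64-fold with the block (adjusted p = 0.00075), Mthfd2 by 0.92 (0.0036), Shmt1 by 0.84 (0.020) and Psat1 by 0.79 (0.015). Without replicate 1 of transient antigen with anti-CD40, Phgdh, Psat1, Shmt2, Mthfd1 and Mthfd1l stayed called with the block, Shmt2 at 1.94 (SE 0.32), and neither unblocked call held. Both unblocked calls also ended without no antigen with PBS replicate 1 or 3, any of the 3 transient PBS arrays, persistent PBS replicate 3 or persistent anti-CD40 replicate 1 or 3, and 1 held without persistent anti-CD40 replicate 2.

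**Figure D3:**
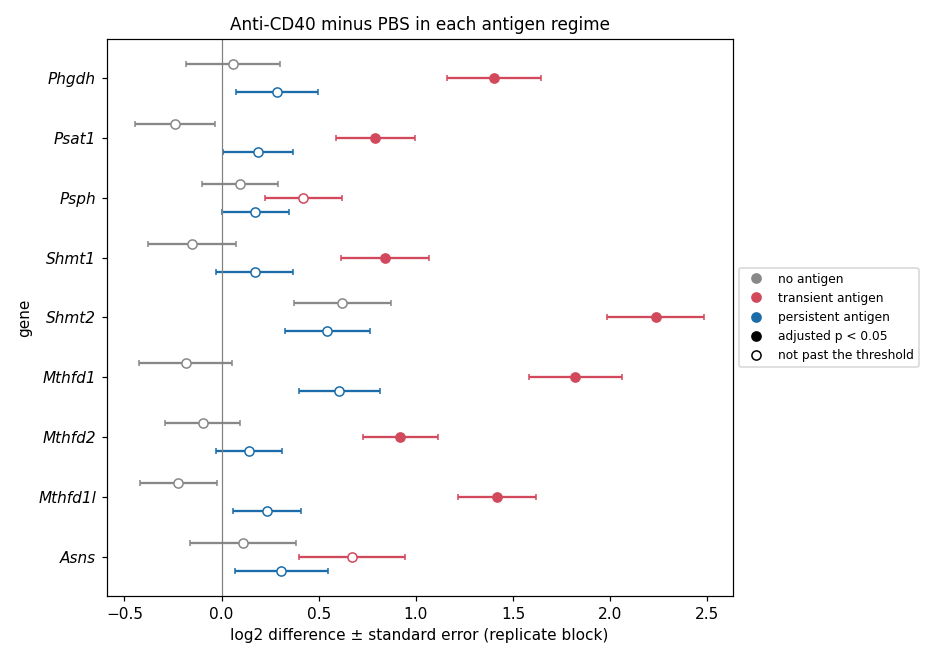
Difference between anti-CD40 and PBS for each gene (y axis) in each antigen regime, as log2 difference with its standard error from the fit with the replicate block (x axis), with filled points for adjusted p under 0.05. The 7 filled points belong to transient antigen, with Shmt2 at 2.23 on the probe set used the farthest from 0.

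The differences between these effects were tested as interaction terms, on the probe set used for each gene. No member passed without the block, and 7 and 3 members had an unadjusted p under 0.05 in the terms that set transient against no antigen and persistent against transient antigen. With the block the anti-CD40 effect was larger under transient than under no antigen in 6 members, Mthfd1 (2.01), Mthfd1l (1.64), Shmt2 (1.61), Phgdh (1.34), Psat1 (1.03) and Mthfd2 (1.02), beside 3.09% of all genes called in that direction. Without replicate 1 of transient antigen with anti-CD40 the call of Mthfd1 alone held (1.75, SE 0.38, limma adjusted p = 0.045). Without no antigen with PBS replicate 1 or 3, no antigen with anti-CD40 replicate 2 or transient antigen with PBS replicate 1, 3 calls held. Between persistent and transient antigen the effect was smaller under persistent antigen in 2 members with the block, Shmt2 (-1.69) and Mthfd1l (-1.18), beside 1.52% of all genes called in that direction, and neither call held without that array, persistent PBS replicate 3 or persistent anti-CD40 replicate 1. The count was 1 without transient PBS replicate 1 or 3, persistent PBS replicate 1 or persistent anti-CD40 replicate 3, and 4 without persistent anti-CD40 replicate 2. Between persistent and no antigen, 0 members were called in either fit, beside 0% of all genes, with 1 at an unadjusted p under 0.05 in the blocked fit.

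Transient antigen with anti-CD40 was also set against persistent antigen with PBS. None of the 9 genes was called in either fit on the probe set used, beside 0.022% of all genes called higher and 0.033% lower with the block, with 2 members at an unadjusted p under 0.05 without the block and 3 with it. Blocked differences were 0.27 for Phgdh (95% interval -0.23 to 0.78), 0.22 for Psat1 (-0.21 to 0.65), -0.01 for Psph (-0.43 to 0.40) and 0.19 for Mthfd2 (-0.21 to 0.60). They were larger for Shmt2 at 1.18 (0.66 to 1.70, limma adjusted p = 0.076), Mthfd1 at 0.85 (0.36 to 1.35) and Shmt1 at 0.81 (0.33 to 1.28). A dimmer probe set of Mthfd1, 1436704_x_at, was called with the block (1.5, limma adjusted p = 0.019). With the block and without persistent antigen with anti-CD40 replicate 2, 2 members were called higher.

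In 8 of the 9 members, all but Shmt1, the same 3 groups had the lower means, no antigen with either treatment and transient antigen with PBS. The share of all genes with this order was not counted. In Asns, no antigen with anti-CD40 (5.04 ± 0.16, SD, n = 2) was close to persistent antigen with PBS (5.07 ± 0.28, SD, n = 3), and their arrays overlapped. Arrays of Psph, Shmt2 and Mthfd1 also overlapped between the lower and upper groups. In Mthfd2 the means were 8.07 ± 0.53 (SD, n = 2) in no antigen with anti-CD40, 8.16 ± 0.04 (SD, n = 3) in no antigen with PBS and 8.44 ± 0.12 (SD, n = 3) in transient antigen with PBS. Then came 9.16 ± 0.09 (SD, n = 3) in persistent antigen with PBS, 9.30 ± 0.15 (SD, n = 3) in persistent antigen with anti-CD40 and 9.36 ± 0.15 (SD, n = 2) in transient antigen with anti-CD40. The gap of Mthfd2 between the lower 3 and upper 3 groups exceeded its SD in every group. Transient antigen with PBS lay above no antigen with PBS without overlap but was not called, and the other neighbours within each set of 3 overlapped. In Shmt1 the order was another. Its highest mean was in transient antigen with anti-CD40 (8.41 ± 0.34, SD, n = 2), and the other 5 groups were between 7.49 ± 0.45 and 7.72 ± 0.24 (SD, n = 3 each), in an order that their spread does not settle.

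Other genes of these pathways were counted from lists, with the replicate block unless stated. In persistent against no antigen with PBS the shares of all genes were 9.93% higher and 6.79% lower, in transient against no antigen with anti-CD40 10.5% higher, and in anti-CD40 against PBS under transient antigen 7.59% higher. The cytosolic aminoacyl-tRNA synthetases, which charge tRNAs with amino acids, were higher in 7 of 19 measured with persistent against no antigen and PBS, in 15 of 19 with transient against no antigen and anti-CD40, and in 14 of 19 with anti-CD40 against PBS under transient antigen. None was lower in these comparisons, and without the block 1 of 19 was called in each. Gars, which charges glycine, the product of Shmt1 and Shmt2, had group means of 7.75, 8.11 and 9.19 under PBS with no, transient and persistent antigen. It rose by 1.44 with persistent antigen without the block as well (limma adjusted p = 0.0053, and 1.1e-05 with the block). Of 20 measured folate cycle and glycine cleavage genes, 4 were higher (20%) and 2 lower (10%) with persistent antigen and PBS, and 7 were higher (35%) with anti-CD40 under transient antigen. Without the block the first comparison had 0 higher and 1 lower and the second 1 higher. Tyms, which makes thymidylate from folate-bound carbon, differed by 0.89 and 1.38 in these comparisons, and Gart, an enzyme of purine synthesis that uses the carbon supplied by Mthfd1, by 1.67 in the second. The folate carriers Slc19a1 and Slc46a1 fell by 0.70 and 0.40 with persistent antigen and PBS. Slc46a1 was dim, with group means from 3.61 to 4.01, below the median probe set.

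In the methionine cycle, which takes methyl groups from folate, Ahcy rose by 1.58 with persistent antigen and PBS and by 1.85 with anti-CD40 under transient antigen with the block, and was also called without the block in both (limma adjusted p = 0.0050 and 0.025). Of the 9 genes measured there, Ahcyl2 and Mtap fell in the first comparison, by 0.65 and 0.49 with the block. The list thus had 11.1% higher and 22.2% lower, beside 9.93% and 6.79% of all genes. In the second comparison Mtap rose, by 0.58 with the block, and 22.2% of the list was higher beside 7.59% of all genes. Among 10 measured genes of asparagine, aspartate, glutamine and proline metabolism, 0 were called without the block with persistent antigen and PBS, and 4 were higher (40%) with it, among them Asrgl1 (1.33), which breaks down asparagine, and Got2 (1.01), the mitochondrial aspartate transaminase. Of 11 genes that use or break down serine, 1 was higher there, Sptlc1 (0.52), which starts sphingolipid synthesis from serine, and 1 lower, Serinc1 (-1.16), which is 9.09% each way and near the shares of all genes. Without the block 0 of the 11 were called.

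The list of ATF4 and the amino acid response had 21 of 21 genes measured, and 0 were called without the block in the comparisons described here. With persistent antigen and PBS 1 was higher, Cebpg (0.87), and 1 lower, Slc3a2 (-0.66), which is 4.76% of the list each way beside 9.93% and 6.79% of all genes. With transient antigen and anti-CD40 against no antigen 4 were higher, 19% of the list beside 10.5% of all genes, among them the amino acid carriers Slc7a5 (1.19) and Slc1a5 (0.88). With anti-CD40 against PBS under transient antigen Slc7a5 (1.73) and Cebpg (0.71) rose, and Ddit4 fell by 1.15. These are 9.52% of the list higher and 4.76% lower, near the 7.59% and 2.92% of all genes. Atf4 itself had means from 7.35 to 7.94 over the 6 groups and was called in 1 of the 13 comparisons, persistent against no antigen with anti-CD40 (0.58, limma adjusted p = 0.045 with the block). In that comparison 3 genes of the list were higher with the block, Atf4, Cebpg (1.10) and Slc1a5 (0.76). They are 14.3% of the list beside 10.9% of all genes. The 1 lower gene was Ddit3 (-0.85), a stress-induced factor downstream of ATF4, 4.76% of the list beside 5.5% of all genes. The mean of Trib3, another such target, stayed between 3.65 and 3.96 over the groups, below the median probe set.

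**Figure D4:**
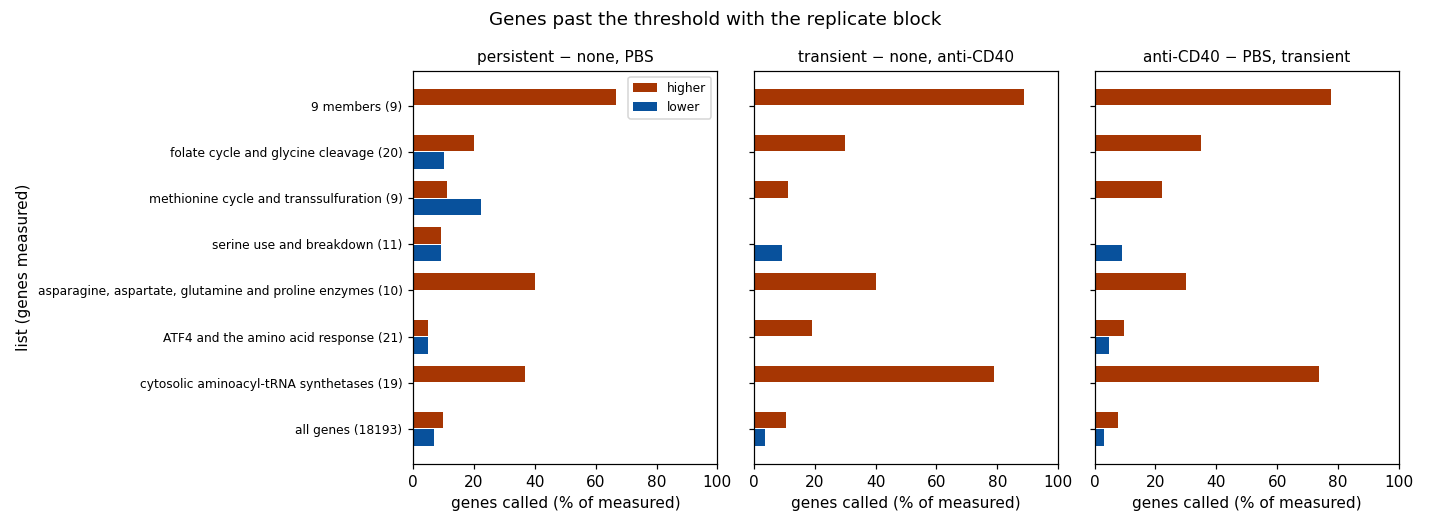
Share of the measured genes of each list called higher or lower with the replicate block (x axis, percent), for the lists, the 9 genes and all genes (y axis), one panel per comparison. The aminoacyl-tRNA synthetases reach 78.9% in transient against no antigen with anti-CD40, where the 9 genes reach 88.9% and all genes 10.5%.

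Genes with the profile nearest to each member were found by the root mean square difference of mean-centred log2 values over the 16 arrays, given as a description. Mthfd2 was nearest to the proteasome genes Psma5 (0.10) and Psmc3 (0.14) and to Gins4 (0.14), a replication gene. Psat1 was nearest to Tkt (0.19), an enzyme of the pentose phosphate route, Paics (0.19), an enzyme of purine synthesis, and Psma5 (0.19), with Mthfd2 in rank 4. For Phgdh they were Nudc (0.18), Cdk4 (0.19) and Ndufab1 (0.19), for Psph Snf8, Abcf1 and Timm8b (0.13 to 0.15), and for Mthfd1 Dis3, Gart and Abce1 (0.21 to 0.23). Those of Mthfd1l were Pola2, Urb2 and Palb2 (0.18 to 0.20), and those of Shmt2 Mrpl12, Hirip3 and Creld2 (0.28 to 0.31), the least close set. Shmt1 (Ifrd2, Il1r2, Mybbp1a) and Asns (Trim28, Gpr25, Sf3a1) had their nearest other member in rank 1397 and 362, whereas Shmt2 had Mthfd1 in rank 22. Arrays of one replicate number share a deviation, which enters all these distances.

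Members with several probe sets were checked on a fit over 45037 probe sets. The 9 genes have 23 probe sets, 14 of them not used above. In persistent against no antigen with PBS 3 of these 14 had the opposite sign to the probe set used, and 0 of those were called. For Psat1 the second probe set, 1451064_a_at, gave a larger difference than the one used, 1454607_s_at (2.14 and 1.0). For Shmt2 the used probe set, 1455084_x_at, rose by 2.23 with anti-CD40 under transient antigen with the block, whereas 1455985_x_at differed by 0.73 (adjusted p = 0.073 in limma) and the dim 1426423_at and 1434204_x_at by 0.71 and 0.76, both called. Names ending in _x_at or _s_at mark probe sets whose probes may match other transcripts, and all 4 of Phgdh are of the first kind.

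The 4 probe sets of Shmt1 did not give one profile. The one used, 1425177_at, differed by -0.20 between persistent and no antigen with PBS, whereas 1425179_at differed by 0.83 (limma adjusted p = 0.44, and 0.054 with the block). 1425179_at measured 5.74, 5.30 and 5.74 without antigen, 5.18, 5.03 and 5.97 with transient antigen and 6.88, 5.73 and 6.66 with persistent antigen under PBS. Under anti-CD40 it measured 5.66 and 5.41, then 8.24 and 6.67, then 6.65, 7.27 and 7.43. Its arrays under anti-CD40 were thus higher with antigen than without in each case, which the used probe set did not show for persistent antigen, and it was called there with persistent antigen (1.42, limma adjusted p = 0.0053 with the block), where the probe set used differed by 0.12. The profile of Shmt1 given above therefore holds for that probe set.

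**Figure D5:**
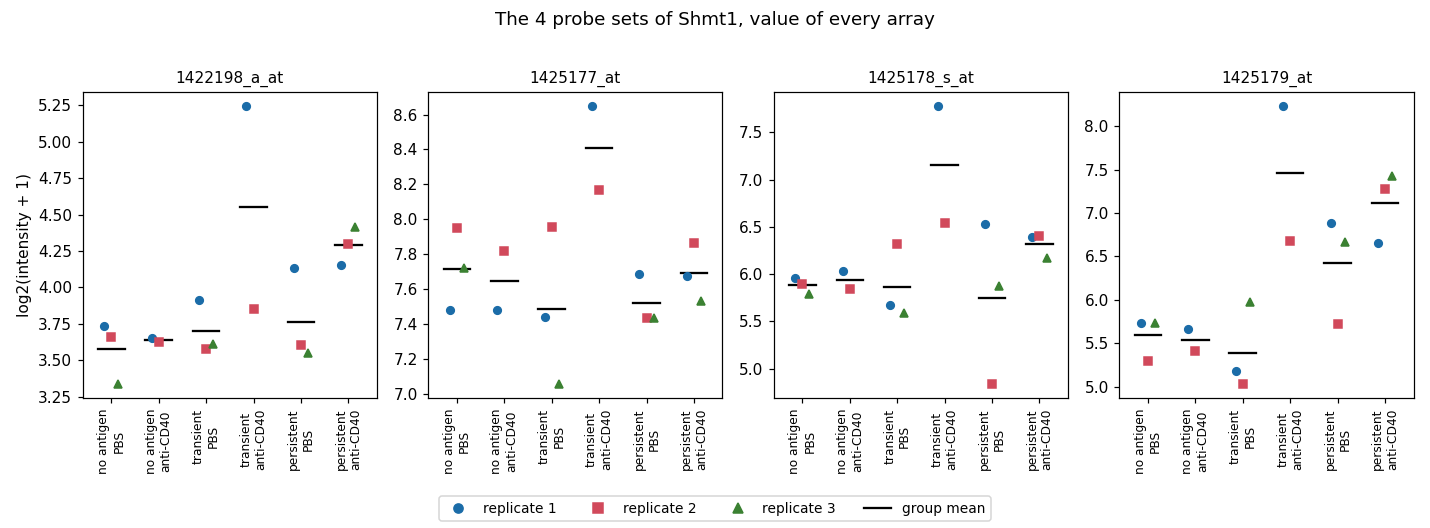
Value of each of the 16 arrays for the 4 probe sets of Shmt1, as log2(intensity + 1) on the y axis, by antigen regime and treatment on the x axis, with the replicate number as marker and the group mean as a line. All 4 are highest in transient antigen with anti-CD40, and all but the one used, 1425177_at, are also above their no-antigen arrays in persistent antigen with anti-CD40.

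A comparison of mitochondrial with cytosolic partners was added after the values had been seen. Differences in log2 between partners were compared between 5 arrays without antigen and 6 with persistent antigen, pooling PBS and anti-CD40, with an exact two-sided permutation test that kept the replicate numbers (108 allocations, smallest possible p 0.0093). Shmt2 minus Shmt1 was -0.94 ± 0.49 (SD, n = 5) without antigen and 0.08 ± 0.47 (SD, n = 6) with persistent antigen, so the pair shifted by 1.03 (exact permutation p = 0.0093, adjusted over 3 such tests 0.028). With 1425179_at for Shmt1 the shift was -0.26 (exact permutation p = 0.19), with 1425178_s_at 0.81 and with 1422198_a_at 0.52. Mthfd1l minus Mthfd1 shifted by -0.01 (exact permutation p = 0.94) and Mthfd2 minus Mthfd1 by 0.32 (exact permutation p = 0.13, adjusted 0.20). The unequal change of the Shmt pair therefore depended on the Shmt1 probe set. Only that probe set was varied, not the one of Shmt2. The permutation p-values do not allow for the choice of comparison after the values had been seen. Replicate 2 arrays without antigen and with persistent antigen came from different array runs, which the permutation did not keep apart.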

How the data were processed

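Expression was measured on 16 Affymetrix mouse arrays with 45101 probe sets. The authors deposited intensity values that, per the submitters' processing notes, come from RMA (version not given in the sources used here). Per the labels' protocols the RNA was amplified in 2 rounds. The deposited intensity values reach far above any log2 scale and were read as linear, then used as log2(intensity + 1), which compresses differences of dim genes. Of the probe sets 34945 had 1 gene symbol and gave 18193 genes, 932 had several symbols, 9211 were not listed and 64 were array controls, 51 of which are among those not listed. Array number limits the precision.

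Differences were tested with limma 3.58.1 (R 4.3.3, data.table version 1.17.8), with 1 model of 6 group means, an intensity trend and no block, for 13 comparisons. Deviations from group means correlated at 0.48 to 0.81 (median 0.68) in 36 pairs of arrays with the same replicate number. In 70 pairs with different numbers they correlated at -0.81 to 0.60 (median -0.53), so the ranges overlap. Deviations within a group sum to 0, so the values of different numbers follow in part from those of the same number. All 16 arrays correlated best with their own number. On this basis, which the labels do not state, the numbers were taken to pair the arrays, and the model was refitted with them as a block. Replicate 1 and replicate 3 arrays each came from 1 run of consecutive array numbers, and replicate 2 arrays from a run for the no-antigen groups and another for the rest.

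Named genes were all 9 members, up to 3 called genes per list and direction in described comparisons and the 3 nearest profiles per member. The exception is Trib3, named after its values were seen. The members and lists were chosen with earlier results of these data known. The model was tested on simulated data. Alternatives were a block for 4 array runs, the compared groups alone, no trend, dim genes left out, probe sets averaged per gene, cyclic loess, log2(intensity + 16) and each array left out. The same alternatives together with the block, leaving out all replicate 2 arrays, and the partner comparison were chosen after seeing the data.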

Additional observations from a re-analysis of the deposited data

Results flagged for a closer look

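In 8 cases the anti-CD40 effect of a member differed between 2 antigen regimes by an interaction term of the limma fit with the replicate block, and 0 did without the block. The effect under transient antigen exceeded that under no antigen by 2.01 in Mthfd1 (SE 0.328, adjusted p = 0.0037), 1.64 in Mthfd1l (SE 0.274, 0.0037) and 1.61 in Shmt2 (SE 0.345, 0.013). It did so by 1.34 in Phgdh (SE 0.335, limma adjusted p = 0.031), 1.02 in Mthfd2 (SE 0.266, 0.039) and 1.03 in Psat1 (SE 0.283, 0.049). The effect under persistent antigen minus that under transient antigen was -1.69 in Shmt2 (SE 0.332, limma adjusted p = 0.014) and -1.18 in Mthfd1l (SE 0.263, 0.026). The terms share the arrays of transient antigen, of which the anti-CD40 group held 2. They rest on the probe set used for each gene, and the other Shmt2 probe sets gave smaller anti-CD40 effects under transient antigen. No group was large enough for a test of single outlying arrays.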

How the results depend on the processing

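The number of members called depended most on the replicate block. No difference of a member called in either fit changed sign under an alternative of the unblocked fit. Of the alternative values 884 kept their side of the threshold, 98 came past it and 70 lost it. The 884 include the shift of the Shmt pair with probe sets 1422198_a_at and 1425178_s_at. Counts are given for 5 comparisons in the order persistent against no antigen and persistent against transient antigen with PBS, transient against no and persistent against no antigen with anti-CD40, and anti-CD40 against PBS under transient antigen. They were 2, 0, 0, 3 and 2 with no replicate block, 6, 6, 8, 7 and 7 with the replicate block and 5, 6, 7, 7 and 7 with a block for array runs. Without a block they were 0 in all 5 with the compared groups alone, 1, 1, 1, 1 and 2 with probe sets averaged per gene, 3, 1, 2, 4 and 3 with no intensity trend and 3, 1, 2, 3 and 2 with dim genes left out. They were 3, 2, 0, 2 and 4 with cyclic loess scaling and 4, 3, 1, 1 and 6 without all replicate 2 arrays. Leaving out each array in turn gave 0 to 3, 0 to 0, 0 to 2, 0 to 3 and 0 to 2 without the block, and 4 to 6, 5 to 6, 5 to 9, 6 to 7 and 5 to 8 with the replicate block. The interaction of transient against no antigen had 0 calls with no replicate block, 6 with the replicate block and 6 with array runs, and 1 to 6 with the block when arrays were left out. That of persistent against transient antigen had 0 with no replicate block, 2 with the replicate block and 4 with array runs. With the block it had 1 with probe sets averaged, 6 without all replicate 2 arrays and 0 to 4 when arrays were left out. Its calls went to 0 without transient anti-CD40 replicate 1, persistent PBS replicate 3 or persistent anti-CD40 replicate 1. Between transient antigen plus anti-CD40 and persistent antigen plus PBS the blocked count was 0, but 3 with the compared groups alone, 1 without all replicate 2 arrays and 0 to 2 when arrays were left out. The shift of Shmt2 against Shmt1 reversed to -0.26 with probe set 1425179_at. A group left with 1 array is assumed to vary like the others, and the causes were not tested.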
